A study of Mus musculus with 18 samples.

Results

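The 10 genes described here encode parts of the machinery by which cells show peptides on major histocompatibility complex (MHC) class I: B2m, H2-K1, H2-D1, Tap1, Tap2, Tapbp, Psmb8, Psmb9, Psmb10 and Nlrc5. They were chosen by name and not by a cut on measured values, although earlier results of these data were known. Each had 1 row among the 54532 genes of the RNA-seq tables. Liver RNA came from 18 wild-type (WT) male C57BL/6J mice in 4 groups, with 1 mRNA library per mouse, and all mice were fasted overnight before harvest. Ctrl (n = 5) and B2D (n = 5) were fed a control or a vitamin B2 (riboflavin)-deficient diet for 1 month. Ctrl_FF (n = 4) and B2D_FF (n = 4) were fed the same diets for 9 weeks and received the PPARα agonist fenofibrate (FF) in weeks 7 to 9, the last dose 2 hours before harvest. The diets began at 4 weeks of age in both experiments. Each mouse is named by its group and a running number (Ctrl 1 to 5, and so on).

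Class I molecules present peptides from inside the cell to CD8+ T cells and are found on nearly all nucleated cells, at a modest level on hepatocytes and a higher level on liver macrophages and endothelium. Peptides are cut by the proteasome, carried into the endoplasmic reticulum by the transporter TAP, and loaded with the help of tapasin onto a heavy chain paired with β2-microglobulin. Interferons raise most genes of this pathway, including 3 inducible catalytic subunits that replace constitutive ones to form the immunoproteasome. NLRC5 acts in the nucleus as a transactivator of class I genes.

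H2-K1 and H2-D1, which encode the classical heavy chains of this strain, carry much of this regulation in the bases just before their start sites, and these are shown because both genes hold the same motifs in the same order. Sequences are from RefSeq (GRCm38.p6), read 5′ to 3′ in the direction of the gene, and 8 of the 10 genes had a promoter window (250 bases before to 50 after the start) in that table. In both lines below, capitals mark in turn a κB site of the class I enhancer A, the core of an interferon-stimulated response element (GAA and GAAAC with any 2 bases between them, here on the other strand) and 2 matches to CCAAT, the core of the Y box, the first of them on the other strand.
H2-K1, chr17:34000334-34000468, minus strand: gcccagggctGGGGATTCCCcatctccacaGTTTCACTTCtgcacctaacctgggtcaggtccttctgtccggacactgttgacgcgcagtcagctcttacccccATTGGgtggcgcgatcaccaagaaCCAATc
H2-D1, chr17:35262913-35263053, plus strand: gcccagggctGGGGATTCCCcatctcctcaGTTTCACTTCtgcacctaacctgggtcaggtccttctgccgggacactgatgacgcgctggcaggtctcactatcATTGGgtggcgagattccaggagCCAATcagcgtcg
From the κB site to the first Y box core, 89 of 100 bases were identical between H2-K1 and H2-D1. Among 32544 promoter windows, searched on both strands, that κB sequence, all 10 bases alike, was found in 0.108%, the interferon response core in 1.74% and CCAAT in 37.4%.

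B2m and the Tap1 and Psmb9 pair held the Y box core but neither of the first 2 motifs, in the spellings searched, within their windows. Other spellings of the κB site and of the interferon response element were not searched, so their absence is not shown. They are shown because B2m encodes the chain common to all class I molecules and because Tap1 and Psmb9 are read in opposite directions from 1 short stretch, with RefSeq starts 226 bases apart. Capitals mark CCAAT on either strand.
B2m, chr2:122147534-122147686, plus strand: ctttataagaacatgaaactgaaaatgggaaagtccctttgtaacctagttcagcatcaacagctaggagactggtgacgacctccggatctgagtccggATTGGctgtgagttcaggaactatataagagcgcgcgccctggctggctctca
Tap1 (between the starts of Psmb9 and Tap1), chr17:34187331-34187555, plus strand: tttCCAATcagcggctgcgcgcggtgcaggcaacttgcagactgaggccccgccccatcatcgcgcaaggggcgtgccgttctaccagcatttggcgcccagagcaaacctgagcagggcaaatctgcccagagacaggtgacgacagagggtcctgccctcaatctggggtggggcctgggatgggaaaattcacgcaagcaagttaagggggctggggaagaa
Psmb8 is shown for a match to the gamma-activated site TTCNNNGAA (capitals), a motif of genes that respond to interferon-γ. This sequence occurred in 8.33% of all windows and in no other window of the 10 genes.
Psmb8, chr17:34198068-34198136, plus strand: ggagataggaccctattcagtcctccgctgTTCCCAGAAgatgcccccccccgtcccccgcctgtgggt
A match describes letters in a window and was not tested as a site of binding. In the gene models of the tables (GRCm38), 7 of the 10 genes were on chromosome 17, and Psmb9, Tap1, Psmb8 and Tap2 lay side by side within 34.3 kb, from 34181988 to 34216321. Psmb9 and Tap1 overlapped by 212 bases on opposite strands in these models. Some of the models, among them those of Psmb9, H2-D1 and Psmb8, place the start elsewhere than RefSeq does.

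The deposited values were FPKM, which divide the fragments on a gene by its length and by the size of the library. The library sizes recovered from the values were 16409397 to 20912926. They differed from the reads on genes, which were 15320729 to 21898502 per library. Replicates of a group had Pearson correlations of 0.979 to 0.994 across genes, and no pair of libraries held identical values. The livers expressed hepatocyte markers throughout, with 7 markers (among them Alb, Apoa1 and Hnf4a) summing to between 22600 and 51200 FPKM per library. A list of 9 Kupffer cell and macrophage markers summed to between 58.7 and 180 FPKM, and 10 T and NK cell markers to between 0.266 and 2.76. In whole liver, fewer cells of a type and less RNA per cell cannot be told apart.

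The 10 genes differed widely in level per kilobase. In Ctrl, B2m was at 1343 ± 118 FPKM (SD, n = 5), H2-K1 at 461 ± 48.6, H2-D1 at 221 ± 25.1 and Tapbp at 17.4 ± 3.38, and the ranges of these genes did not overlap each other in any of the 4 groups. Next came Psmb10 (9.91 ± 2.70), Psmb8 (5.44 ± 1.00), Tap1 (4.28 ± 1.45), Psmb9 (3.47 ± 0.945), Tap2 (3.23 ± 0.445) and Nlrc5 (2.76 ± 0.461). Among these 6, each gene overlapped its neighbour in the order in Ctrl, so their order was not resolved beyond the spread between mice. In the other 3 groups Psmb10 lay above the remaining 5 without overlap, and those 5 overlapped with their neighbours. All 10 genes passed the minimum mean of 0.5 FPKM for testing in both experiments, and the lowest group mean was 1.28 FPKM (Psmb9, B2D_FF).

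**Figure D1:**
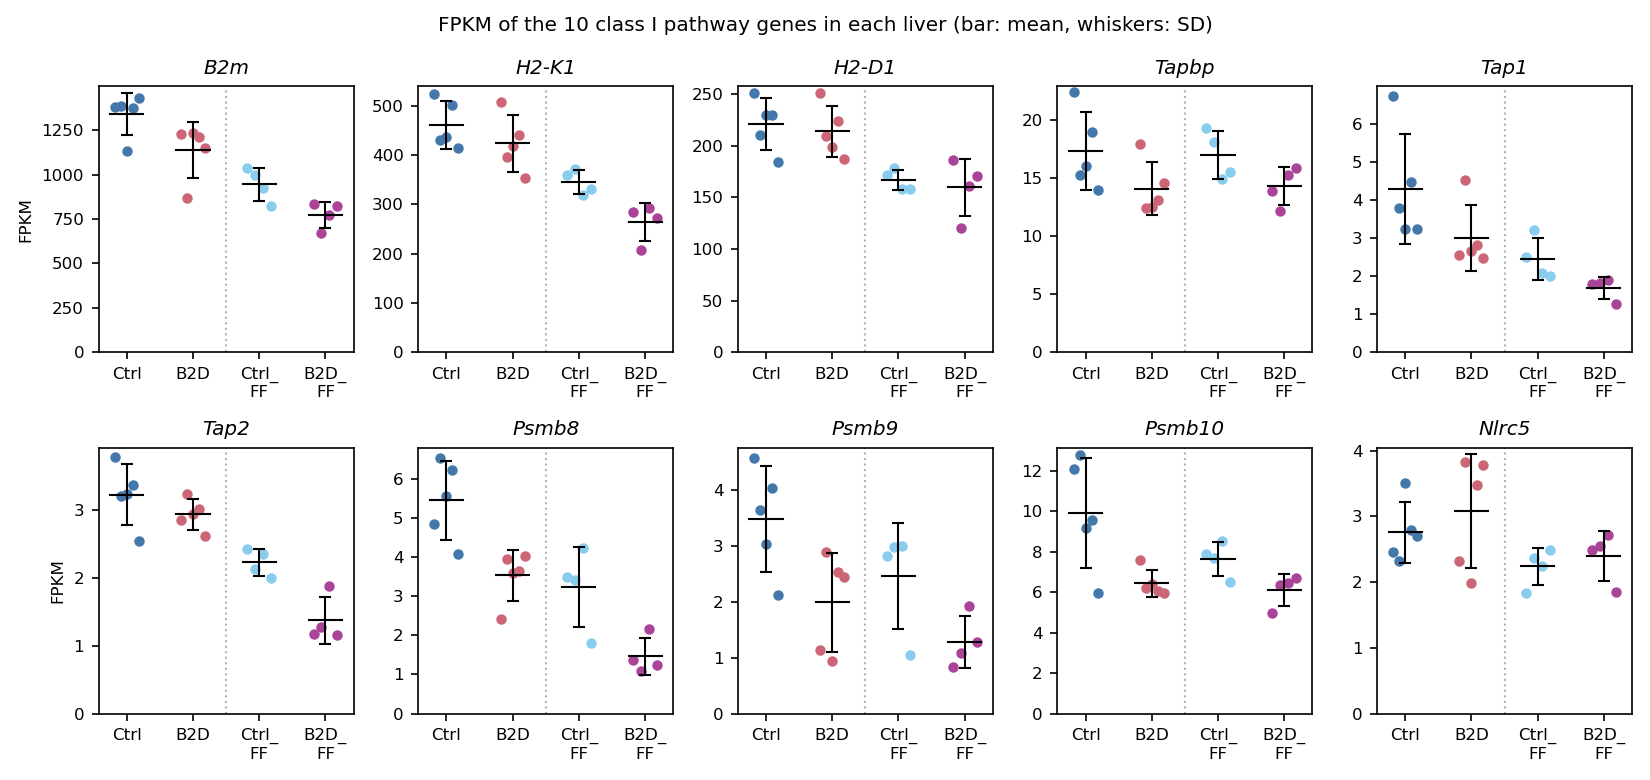
FPKM (linear axis from 0) of each of the 10 genes in every liver, with 1 point per mouse, the group mean as a bar and the SD as whiskers; the dotted line separates the 2 tables, which were normalized separately. Psmb8 lies lower in all 5 B2D than in all 5 Ctrl mice, and Tap2 lower in all 4 B2D_FF than in all 4 Ctrl_FF mice.

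The first question was whether riboflavin depletion alone moved the class I genes. Without fenofibrate, 9 of the 10 were lower in B2D on average, with a median log2 fold change of -0.26, against a median of -0.001 and 50.2% below 0 among all 11574 genes tested. After rescaling to TPM 8 of the 10 were below 0 (median -0.165), and after quantile normalization 7 were (median -0.187). None passed an adjusted p of 0.05 in limma, where 2.7% of all genes did (1.94% lower and 0.769% higher), and none passed with limma voom on the reads behind the values. At an unadjusted p under 0.05, 3 were lower (Psmb8, Psmb9 and Psmb10), beside 10.1% of all genes. Fold changes are on the log2(FPKM + 1) scale, which understates those of genes with low FPKM, and p-values measure the spread between mice.

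With fenofibrate, 9 of the 10 were again lower in B2D_FF than in Ctrl_FF, with a median of -0.32, beside a median of 0.013 and 47.2% below 0 among the 11878 genes tested. Tap2 was the 1 gene that passed (limma adjusted p = 0.0478), where 2.21% of all genes passed lower and 4.45% in either direction, while limma voom called Tap2 and Psmb8. At an unadjusted p under 0.05 there were 7 lower (B2m, H2-K1, Tap1, Tap2, Psmb8, Psmb9 and Psmb10), beside 9.93% of all genes. The groups did not overlap for 1 gene without fenofibrate (Psmb8) and for 3 with it (H2-K1, Tap1 and Tap2), all lower, where 2.89% and 6.44% of all genes were separated in that direction.

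**Figure D2:**
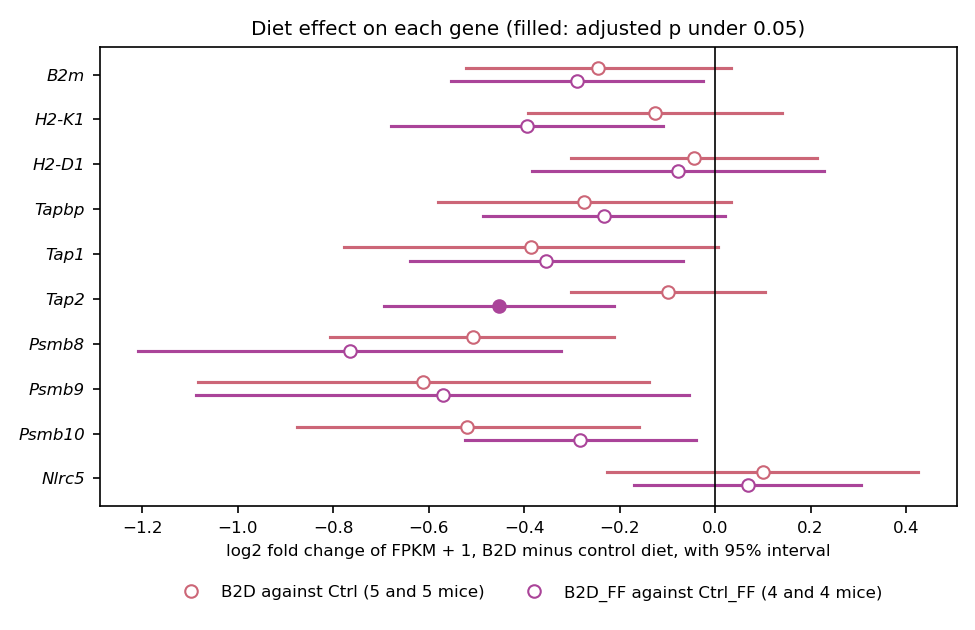
Log2 fold change of FPKM + 1 (horizontal axis, B2D minus control diet) of each gene, with its 95% interval from limma, for mice without fenofibrate (red, 5 and 5) and with fenofibrate (purple, 4 and 4). The points of 9 genes lie below 0 in both comparisons, that of Nlrc5 lies above 0 in both, and Tap2 with fenofibrate is the 1 filled point (adjusted p under 0.05).

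B2m (chromosome 2, 122147686 to 122153083, GRCm38) encodes β2-microglobulin, without which heavy chains do not reach the cell surface. Its FPKM was 1382, 1385, 1136, 1375 and 1434 in Ctrl 1 to 5, and 1230, 867, 1235, 1213 and 1150 in B2D 1 to 5. Ctrl 3 lay inside the B2D range and the other 4 Ctrl mice lay above it, while B2D 2 was the lowest of all. The log2 fold change was -0.25 (SE 0.127, limma adjusted p = 0.329), a B2D mean of 84.8% of Ctrl. With fenofibrate, the values were 1037, 1001, 923 and 825 in Ctrl_FF 1 to 4 and 833, 671, 772 and 822 in B2D_FF 1 to 4. Of the B2D_FF mice 3 lay below every Ctrl_FF mouse, and the log2 fold change was -0.29 (SE 0.117, limma adjusted p = 0.199). The B2m gene model lies across Patl2 on the other strand, which was at 0.0167 FPKM in Ctrl.

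H2-K1 (chromosome 17, 33996017 to 34000333) was nearly level without fenofibrate, with 413 to 524 FPKM in Ctrl (median 437) and 354 to 508 in B2D (median 418). The groups overlapped widely, and the log2 fold change was -0.13 (SE 0.122, limma adjusted p = 0.614). With fenofibrate, H2-K1 was at 359, 372, 318 and 331 FPKM in Ctrl_FF and at 284, 208, 293 and 272 in B2D_FF. Every B2D_FF mouse was below every Ctrl_FF mouse, and the mean was 76.5% of Ctrl_FF, but the adjusted p did not pass (log2 fold change -0.39, SE 0.127, limma adjusted p = 0.112).

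H2-D1 (chromosome 17, 35262730 to 35267499), the second heavy chain, differed less between the diets than H2-K1 and B2m. It ranged from 184 to 251 FPKM in Ctrl and from 188 to 251.5 in B2D, with a log2 fold change of -0.04 (95% interval -0.30 to 0.21, limma adjusted p = 0.875). With fenofibrate it ranged from 158 to 178 in Ctrl_FF and from 121 to 187 in B2D_FF, with a log2 fold change of -0.08 (95% interval -0.38 to 0.23, limma adjusted p = 0.789). The groups overlapped in both experiments. Without fenofibrate the direction of H2-D1 was not stable, since it was above 0 after rescaling to TPM (0.057) or quantile normalization (0.079), and that of H2-K1 was above 0 after quantile normalization (0.124). H2-K1, H2-D1 and the H2-Q and H2-T genes share long near-identical stretches between which reads may be split, so their single values are uncertain.

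Tap1 and Tap2 encode the paired subunits of the peptide transporter. Tap1 (chromosome 17, 34187553 to 34197225) was at 6.71, 3.79, 3.22, 4.45 and 3.22 FPKM in Ctrl and at 2.54, 4.51, 2.64, 2.82 and 2.47 in B2D. Of the B2D mice 4 lay below every Ctrl mouse and B2D 2 did not, and the log2 fold change was -0.39 (SE 0.180, limma adjusted p = 0.279). With fenofibrate it was at 2.50, 3.21, 2.08 and 1.99 FPKM in Ctrl_FF and at 1.78, 1.80, 1.90 and 1.26 in B2D_FF. The groups did not overlap, although the highest B2D_FF and the lowest Ctrl_FF mice were close, and the adjusted p did not pass (log2 fold change -0.35, SE 0.127, limma adjusted p = 0.15).

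Tap2 (chromosome 17, 34203527 to 34216321) hardly differed without fenofibrate, at 2.55 to 3.79 FPKM in Ctrl (median 3.25) and 2.63 to 3.24 in B2D (median 2.95), with all 5 B2D mice inside the range of Ctrl (log2 fold change -0.10, SE 0.094, limma adjusted p = 0.603). In the fenofibrate experiment Tap2 was at 2.43, 2.14, 2.36 and 2.00 FPKM in Ctrl_FF and at 1.18, 1.27, 1.89 and 1.16 in B2D_FF, from 76 to 155 reads per library. All 4 B2D_FF mice were below all 4 Ctrl_FF mice, with B2D_FF 3 the closest to them. Tap2 fell to 61.7% of Ctrl_FF, a log2 fold change of -0.45 (SE 0.107, 95% interval -0.69 to -0.21, limma adjusted p = 0.0478). The call was lost without any of 7 libraries: the limma adjusted p was 0.133, 0.113, 0.112 and 0.0642 without Ctrl_FF 1, 2, 3 or 4 and 0.106, 0.0851 and 0.112 without B2D_FF 1, 2 or 4, and it was 0.0133 without B2D_FF 3. It also did not pass after rescaling to TPM (0.0817), quantile normalization (0.0531) or without a filter on low values (0.118). Gm15821 and Gm20496, on the other strand, overlap Tap2 and were at 0.0762 and 0.0474 FPKM in Ctrl.

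Tapbp (chromosome 17, 33915899 to 33929288) encodes tapasin, which holds the empty class I molecule at the transporter. It was at 22.4, 15.3, 16.1, 19.0 and 13.99 FPKM in Ctrl and at 17.9, 12.5, 12.5, 13.1 and 14.6 in B2D, and at 19.4, 18.1, 14.96 and 15.6 in Ctrl_FF and 13.9, 12.2, 15.3 and 15.9 in B2D_FF. Both pairs of groups overlapped, with means at 81.3% and 84.2% of the control diet. The log2 fold changes were -0.27 (SE 0.141, limma adjusted p = 0.323) and -0.23 (SE 0.113, limma adjusted p = 0.273). Tapbp shares 3421 bases with the model of Zbtb22 on the same strand (6.74 FPKM in Ctrl), so reads of these genes cannot be told apart there.

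The inducible proteasome subunits had the lowest B2D levels of the 10 genes relative to the control diet without fenofibrate, and Psmb8 and Psmb9 did with it. Psmb8 (chromosome 17, 34197721 to 34201454), the chymotrypsin-like subunit also known as LMP7, was at 4.85, 6.52, 5.56, 6.22 and 4.07 FPKM in Ctrl and at 2.42, 3.94, 3.60, 3.63 and 4.04 in B2D. No B2D mouse reached the Ctrl range, but B2D 5 and Ctrl 5 were nearly equal. The mean was 64.8% of Ctrl, with a log2 fold change of -0.51 (SE 0.137) and a limma adjusted p of 0.0744 that passed without Ctrl 5 (0.0457). With fenofibrate, Psmb8 was at 3.50, 3.42, 4.23 and 1.81 FPKM in Ctrl_FF and at 1.37, 1.10, 2.15 and 1.23 in B2D_FF. Ctrl_FF 4 lay within the B2D_FF range, and the other 3 Ctrl_FF mice lay above it. The mean was 45.2% of Ctrl_FF, with a log2 fold change of -0.765 (SE 0.197) and a limma adjusted p of 0.0606, which was 0.0164 without Ctrl_FF 4 and 0.0399 without B2D_FF 3.

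Psmb9 (chromosome 17, 34181988 to 34187764), or LMP2, was at 4.56, 3.63, 3.02, 4.03 and 2.12 FPKM in Ctrl and at 1.14, 2.88, 0.934, 2.53 and 2.44 in B2D. B2D 1 and B2D 3 were below every Ctrl mouse and the other 3 B2D mice were not (mean 57.2% of Ctrl, log2 fold change -0.61, SE 0.217, limma adjusted p = 0.166). With fenofibrate, the 4 Ctrl_FF mice were at 2.81, 2.97, 2.99 and 1.05 FPKM and the 4 B2D_FF mice at 0.834, 1.07, 1.93 and 1.28. Ctrl_FF 4 lay among the B2D_FF mice and far from its own group, as for Psmb8. The log2 fold change was -0.57 (SE 0.229, limma adjusted p = 0.194), and without Ctrl_FF 4 it was -0.81 (limma adjusted p = 0.0293). Psmb9 rested on few reads, from 52 to 297 per library.

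Psmb10 (chromosome 8, 105935735 to 105938444), or MECL-1, lies outside the chromosome 17 cluster. It was at 12.1, 12.8, 9.16, 9.54 and 5.97 FPKM in Ctrl and at 7.58, 6.18, 6.38, 6.04 and 5.95 in B2D. Ctrl 5 lay among the B2D mice, while the other 4 Ctrl mice were all above them. The mean was 64.9% of Ctrl (log2 fold change -0.52, SE 0.165, limma adjusted p = 0.124), and the call passed without Ctrl 5 (log2 fold change -0.67, limma adjusted p = 0.0186). With fenofibrate it was at 7.86, 7.70, 8.50 and 6.51 FPKM in Ctrl_FF and at 4.96, 6.34, 6.46 and 6.70 in B2D_FF, with a log2 fold change of -0.28 (SE 0.108, limma adjusted p = 0.172). The groups overlapped by 1 mouse each, Ctrl_FF 4 and B2D_FF 4.

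Nlrc5 (chromosome 8, 94434356 to 94527272), the class I transactivator, was the 1 gene above 0 in both comparisons. It ranged from 2.32 to 3.51 FPKM in Ctrl (median 2.70) and from 1.99 to 3.82 in B2D (median 3.48), where B2D 1 and B2D 3 were at the bottom of the 10 mice and B2D 2, 4 and 5 were at 3.48 or above. The groups overlapped (log2 fold change 0.10, 95% interval -0.23 to 0.42, limma adjusted p = 0.759). With fenofibrate it ranged from 1.84 to 2.49 in Ctrl_FF and from 1.85 to 2.71 in B2D_FF (log2 fold change 0.07, 95% interval -0.17 to 0.30, limma adjusted p = 0.755).

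Whether the diet effect differed between the experiments was tested as the difference of both effects in 1 fit of 18 libraries. None of the 10 genes passed, where 0.145% of the 11031 genes tested did (0.0635% lower and 0.0816% higher), and none passed with limma voom. The difference was below 0 for 6 of the 10, beside 47.1% of all genes, and this count was 7 to 9 under the other scalings (9 after upper-quartile rescaling) and 4 to 9 with a library left out (4 without B2D_FF 2 and 9 without Ctrl 1). At an unadjusted p under 0.05 there was 1, Tap2, beside 5.11% of all genes lower and 6.79% higher. Its effect was the more negative one with fenofibrate (difference -0.35, 95% interval -0.64 to -0.06, limma adjusted p = 0.321). The largest difference in the other direction was that of Psmb10 (0.24, 95% interval -0.22 to 0.69, limma adjusted p = 0.695). The call of Tap2 in 1 experiment and not in the other is therefore not a tested difference. Fenofibrate, the weeks on the diet and the table all differ between the experiments, so they cannot be told apart.

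Levels in the 2 experiments were set side by side as TPM (each FPKM divided by the sum of its library and multiplied by the same constant in all), without a test. B2m was at 3132 ± 259 TPM in Ctrl (SD, n = 5) and 2103 ± 213 in Ctrl_FF (SD, n = 4), and at 2841 ± 301 in B2D and 1790 ± 83.2 in B2D_FF. Psmb8 was at 12.7 ± 1.96 in Ctrl, 8.86 ± 1.82 in B2D, 7.16 ± 2.10 in Ctrl_FF and 3.40 ± 1.14 in B2D_FF. The mean of each of the 10 genes was lower in Ctrl_FF than in Ctrl and in B2D_FF than in B2D, with Tapbp the closest (40.7 ± 9.41 in Ctrl and 37.8 ± 5.12 in Ctrl_FF). The share of all genes with a lower mean TPM in the fenofibrate experiment was not counted, and a shift of the whole table was not tested. On the control diet, constitutive Psmb5 ran the other way, with 208 ± 19.5 in Ctrl and 324 ± 4.99 in Ctrl_FF. Constitutive Psmb6 was also higher, at 127.5 ± 20.01 in Ctrl and 164.6 ± 13.79 in Ctrl_FF. Constitutive Psmb7 was level, at 61.35 ± 4.839 in Ctrl and 61.4 ± 4.23 in Ctrl_FF.

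Each inducible subunit takes the place of a constitutive one in the proteasome core, Psmb8 that of Psmb5, Psmb9 that of Psmb6 and Psmb10 that of Psmb7, so the ratio within a library does not depend on its scaling. Psmb8 amounted to 5.55, 7.14, 6.00, 6.45 and 5.32% of Psmb5 in Ctrl and to 2.95, 3.79, 4.95, 3.98 and 7.11% in B2D. B2D 5 lay at the top of the Ctrl range and the other 4 B2D mice below it. The difference of the mean log2 ratio was -0.48 (exact permutation test, two-sided, p = 0.0714, adjusted over 6 tests p = 0.103). With fenofibrate, the ratio was 2.34, 2.42, 2.81 and 1.27% in Ctrl_FF and 0.608, 0.658, 1.57 and 0.659% in B2D_FF, a difference of -1.40 (exact permutation p = 0.0571, adjusted p = 0.103), with B2D_FF 3 and Ctrl_FF 4 crossing. Psmb5 itself was at 146 ± 4.69 FPKM in Ctrl_FF and 179 ± 37.3 in B2D_FF (SD, n = 4 each).

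Psmb9 ranged from 5.03 to 9.21% of Psmb6 in Ctrl and from 2.24 to 6.08% in B2D (difference of the log2 ratio -0.64, exact permutation p = 0.175), and from 1.64 to 4.003% in Ctrl_FF and 0.887 to 3.01% in B2D_FF (difference -0.94, exact permutation p = 0.0571). The Psmb10 to Psmb7 ratio was higher, from 25.8 to 46.4% in Ctrl and from 25.1 to 31.6% in B2D. Its difference of -0.40 had an exact permutation p of 0.0476 before and 0.103 after adjustment, and with fenofibrate the ratio was 23.3 to 32.3% and 14.7 to 25.3% (difference -0.42, exact permutation p = 0.0857). All 6 differences were below 0, none passed after Benjamini-Hochberg adjustment over the 6 (0.103 to 0.175), and the diets overlapped in all of them. The smallest p that these designs allow is 0.00794 for 5 against 5 mice and 0.0286 for 4 against 4.

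**Figure D3:**
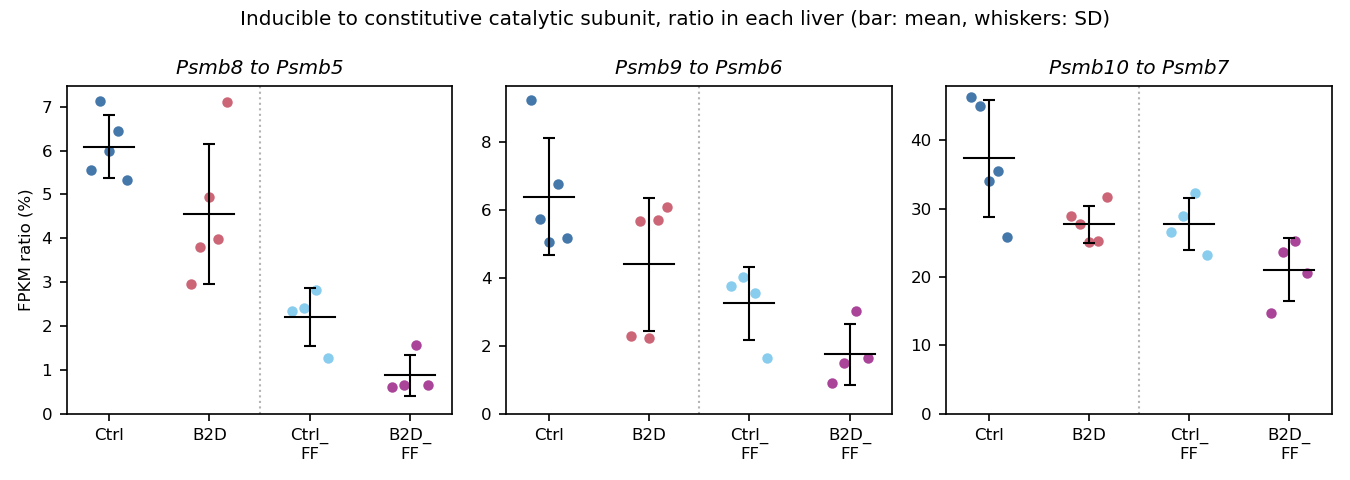
FPKM of each inducible catalytic subunit as a percent of its constitutive counterpart (vertical axes from 0) in every liver, with 1 point per mouse, the group mean as a bar and the SD as whiskers. Psmb8 lies between 5.32 and 7.14% of Psmb5 in Ctrl and between 2.95 and 7.11% in B2D. With fenofibrate it lies between 1.27 and 2.81% in Ctrl_FF and between 0.608 and 1.57% in B2D_FF. The diets overlap in every panel.

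The genes around the class I pathway were read from 6 further lists. In 4 of them (peptide loading, activator and assembly, constitutive core and class II genes) limma called no gene in either comparison, and neither did limma voom. Of 11 genes of peptide loading and trimming, none passed, with 2 lower without fenofibrate and 1 higher with it at an unadjusted p under 0.05, beside 10.1% and 11.3% of all genes in those directions. The medians were -0.085 and -0.068, the first of which was 0.003 after rescaling to TPM. Sec61b, part of the channel of the endoplasmic reticulum, had a log2 fold change of -0.38 without fenofibrate (limma adjusted p = 0.175), and Calr, the chaperone calreticulin, one of -0.31 (limma adjusted p = 0.267). Sec61a1 was higher in all 4 B2D_FF than in all 4 Ctrl_FF mice (8.66 to 10.2 against 11.02 to 14.1 FPKM, log2 fold change 0.30, limma adjusted p = 0.111), a separation found for 7.82% of all genes in that direction.

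None of 9 proteasome activator and assembly genes passed, with medians of -0.084 (0.008 after rescaling to TPM) and 0.065, and 2 were lower at an unadjusted p under 0.05 without fenofibrate and 0 with it, beside 10.1% and 9.93% of all genes. These were Psme2, an interferon-inducible activator subunit, with a log2 fold change of -0.39 without fenofibrate (limma adjusted p = 0.146), and Pomp, which matures new proteasomes and did not overlap between diets, like 2.89% of all genes in that direction (14.4 to 19.4 FPKM in Ctrl and 12.4 to 14.3 in B2D, log2 fold change -0.28, limma adjusted p = 0.158). Psme1, the partner of Psme2 in the activator ring, was at -0.25 without fenofibrate (limma adjusted p = 0.315).

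The 14 constitutive core subunits were mostly below 0 without fenofibrate (13 of 14, median -0.16) and mostly above 0 with it (10 of 14, median 0.082), while none passed in either. Under the 3 other scalings, 11 to 13 were below 0 without fenofibrate (medians -0.124 to -0.034) and 3 to 6 with it (medians 0.022 to 0.143). At an unadjusted p under 0.05 there was 1 lower without fenofibrate (Psma1, -0.25, limma adjusted p = 0.257) and 0 with it, beside 10.1% and 9.93% of all genes. Psmb3 and Psmb5 had the largest values with fenofibrate, at 0.34 (limma adjusted p = 0.243) and 0.27 (limma adjusted p = 0.316). The difference of the effects was above 0 for all 14, with a median of 0.24, where 47.1% of all genes were below 0, and none passed. For the inducible Psmb8, Psmb9 and Psmb10, both diet effects were below 0, and the differences of the effects were -0.257, 0.04 and 0.236.

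**Figure D4:**
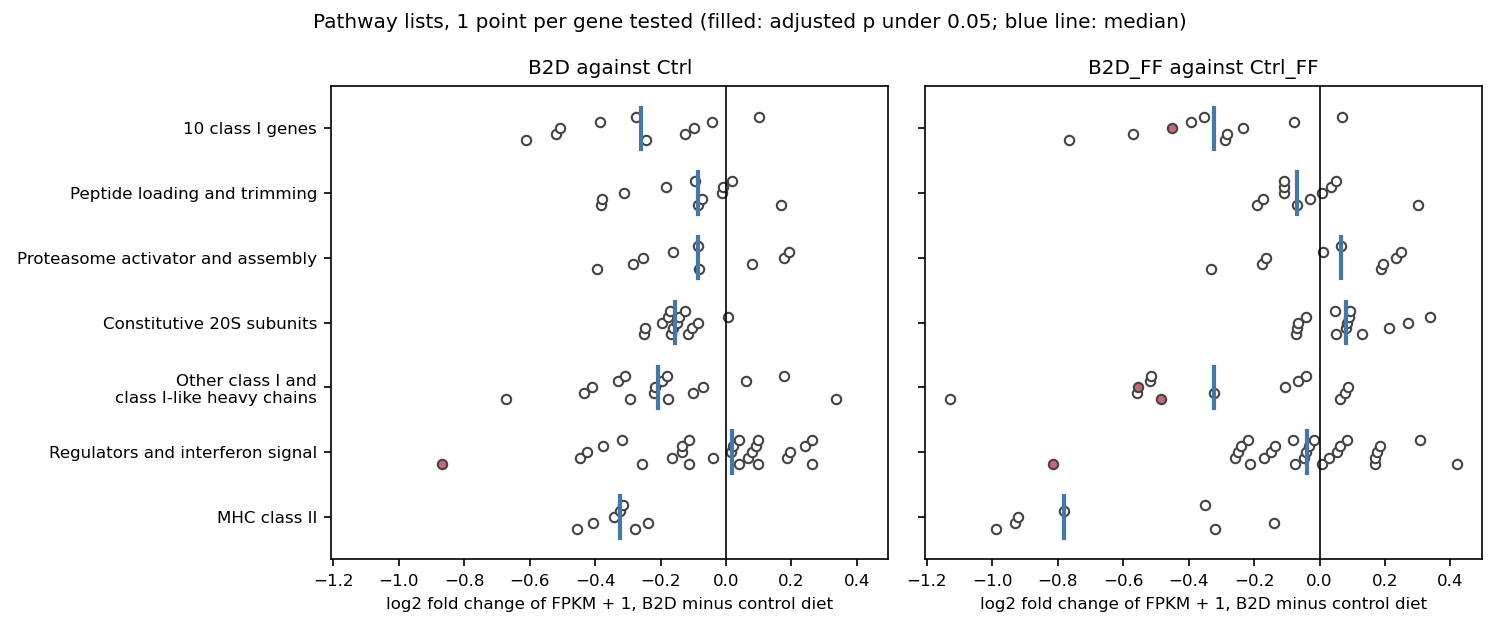
Log2 fold change of FPKM + 1 (horizontal axes, B2D minus control diet) of every gene tested in each list, with 1 circle per gene, filled where the limma adjusted p is under 0.05, and a blue line at the median. The 10 class I genes have medians of -0.26 and -0.32 and the constitutive core proteasome genes have medians of -0.16 on the left, where 13 of 14 lie below 0, and 0.082 on the right.

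Other class I and class I-like heavy chain genes numbered 21, of which H2-Q8 and H2-Q9 had no row and 16 and 13 passed the filter. Without fenofibrate none passed in limma or limma voom, and 6 were lower and 1 higher at an unadjusted p under 0.05 (median -0.21), beside 10.1% and 8.24% of all genes. Of the 6, H2-Q2 averaged 0.785 FPKM in Ctrl and 0.329 in B2D, on 0 to 50 reads per library. It passed the filter only through its high group, and no conclusion is drawn from it. With fenofibrate 2 fell and none rose (median -0.32), beside 2.21% of all genes called lower. At an unadjusted p under 0.05 there were 6 lower, beside 9.93% of all genes, and 4 were called lower by limma voom (H2-Q1, H2-Q10, H2-T22 and H2-T24). The first was H2-Q10, which encodes a secreted class I molecule made by the liver. It was at 597 to 686 FPKM in Ctrl_FF (median 666) and 432 to 496 in B2D_FF (median 470), so that its level exceeded that of H2-K1 (345 ± 24.6 in Ctrl_FF) in this experiment. Its log2 fold change was -0.485 with fenofibrate (SE 0.096, limma adjusted p = 0.0254) and -0.29 without (limma adjusted p = 0.298). The call did not pass without Ctrl_FF 1 (0.095), Ctrl_FF 2 (0.0877), Ctrl_FF 4 (0.0608) or B2D_FF 4 (0.071), nor without a filter on low values (0.066).

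H2-T24, a nonclassical class I gene, fell from 1.44 ± 0.159 to 0.660 ± 0.106 FPKM with fenofibrate (SD, n = 4 each, log2 fold change -0.56, limma adjusted p = 0.0103), and the call passed without each library in turn (0.0133 to 0.0422). It rested on 20 to 57 reads per library. H2-Q1 and H2-M3, whose product presents N-formylated peptides, did not overlap between the diets either, with log2 fold changes of -1.13 (limma adjusted p = 0.0557) and -0.52 (limma adjusted p = 0.0587). Both passed without B2D_FF 3 (0.0166 and 0.0283).

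Among 26 tested regulators and interferon signal genes of the 28 listed, 1 passed in each comparison, lower in both, beside 1.94% and 2.21% of all genes called lower. In both it was Irf7, an interferon-induced transcription factor that drives type I interferon genes. Its FPKM was 8.51 to 15.1 in Ctrl (median 11.4) and 3.70 to 8.72 in B2D (median 5.46), and 4 of the 5 B2D mice were below every Ctrl mouse. Irf7 fell by 0.87 on the log2 scale without fenofibrate (SE 0.198, limma adjusted p = 0.04). That call did not pass without Ctrl 1 (0.0989), Ctrl 2 (0.103), Ctrl 4 (0.109), B2D 2 (0.0687), B2D 3 (0.0686), B2D 4 (0.0973) or B2D 5 (0.0714), nor without a filter (0.131) or after rescaling to TPM (0.0717). With fenofibrate it was at 3.15 to 4.49 FPKM in Ctrl_FF and 1.32 to 2.23 in B2D_FF, without overlap, and fell by 0.815 (SE 0.124, limma adjusted p = 0.0103), a call that passed without each library in turn. Irf9, the DNA-binding part of the complex at the interferon response element, was at -0.42 without fenofibrate (limma adjusted p = 0.0792) and passed without Ctrl 5 (0.0481). At an unadjusted p under 0.05, 5 of the list were lower and 3 higher without fenofibrate, beside 10.1% and 8.24% of all genes. With fenofibrate 2 were lower and 2 higher, beside 9.93% and 11.3% of all genes. The list as a whole was balanced, with 12 and 15 of 26 below 0 and medians of 0.017 and -0.037, the second of which was 0.015 after rescaling to TPM.

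MHC class II genes, which in liver mark antigen-presenting cells rather than hepatocytes, were below 0 for all 7 of the 11 that passed the filter in both comparisons (medians -0.32 and -0.78), and none passed the test. At an unadjusted p under 0.05, 1 and 4 of the 7 were lower, beside 10.1% and 9.93% of all genes. Cd74, the invariant chain, was at 15.4 to 35.5 FPKM in Ctrl_FF and 7.41 to 19.6 in B2D_FF (log2 fold change -0.92, limma adjusted p = 0.137). It passed without B2D_FF 3 (0.0355), as did H2-Aa (0.0315), H2-Eb1 (0.0242) and H2-Ab1 (0.0447). Of the 9 Kupffer cell and macrophage markers, 8 were below 0 in both comparisons, beside 50.2% and 47.2% of all genes. Marco was above 0 in both (log2 fold changes 0.948 and 0.836, limma adjusted p = 0.199 and 0.546). The sums of the 9 markers ranged from 106 to 140 FPKM in Ctrl, 79.6 to 130 in B2D, 92.4 to 180 in Ctrl_FF and 58.7 to 155 in B2D_FF. No marker was at 0 throughout a group. Clec4f, a lectin of Kupffer cells, fell from 28.7 ± 2.83 to 20.4 ± 2.47 FPKM without fenofibrate (SD, n = 5 each, log2 fold change -0.47, limma adjusted p = 0.0412), a call that passed in 1 of the 10 fits without a library (0.0418 to 0.118, passing without Ctrl 3) and not after rescaling to TPM (0.109) or quantile normalization (0.102). With fenofibrate Clec4f was at -0.62 (limma adjusted p = 0.108). The 10 T and NK cell markers, at low levels, summed to 0.755 to 1.77 FPKM in Ctrl_FF and 0.334 to 0.811 in B2D_FF, where Cd8b1 was at 0 in every library, and to 0.266 to 2.76 in Ctrl and 0.653 to 1.68 in B2D. The 4 neutrophil markers summed to 0.431 to 1.99 FPKM in Ctrl and 1.64 to 5.8 in B2D, and to 2.18 to 3.70 in Ctrl_FF and 3 to 13.4 in B2D_FF. Of these markers, Retnlg was called higher with fenofibrate (log2 fold change 0.97, limma adjusted p = 0.028) on 2 to 30 reads per library. It averaged 0.301 FPKM in Ctrl_FF and 1.63 in B2D_FF, so it passed the filter only through its high group. No conclusion is drawn from that call, and Retnlg was not tested without fenofibrate. Among 7 hepatocyte markers without fenofibrate, 3 were below 0, beside 50.2% of all genes, and 4 were above 0 (median 0.012). With fenofibrate, 2 were below 0, beside 47.2% of all genes, and 5 were above 0 (median 0.296). Alb and Ttr were lower without overlap (log2 fold changes -0.355 and -0.335, limma adjusted p = 0.114 and 0.104), like 6.44% of all genes. Hnf4a (0.347, limma adjusted p = 0.128) and Tat, tyrosine aminotransferase (1.35, limma adjusted p = 0.0188), were higher without overlap, like 7.82% of all genes. Cps1 was at 0.661 (limma adjusted p = 0.0935). Of 7 endothelial markers, 2 were below 0 and 5 above 0 without fenofibrate (median 0.166), beside 50.2% of all genes below 0. With fenofibrate, 6 were below 0 (median -0.122), beside 47.2% of all genes. The 1 above 0 was Lyve1 (log2 fold change 0.77, limma adjusted p = 0.0294). The part of these cells in the class I values was not tested.

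Within groups, the class I genes varied together only in part. Pearson correlations of log2(FPKM + 1), taken as deviations from the group mean over 18 libraries, had a median of 0.308 over the 45 pairs of the 10 genes, and 10 pairs were below 0. The heavy chains H2-K1 and H2-D1 were the closest pair (r = 0.897, Spearman 0.827), followed by H2-K1 with Tapbp (0.744) and Psmb8 with Psmb9 (0.742). Nlrc5 and B2m were the most opposed (r = -0.626, Spearman -0.707). Without the 2 libraries farthest from the median of the first gene of the pair, these correlations were 0.827, 0.881, 0.575 and, for B2m with Nlrc5, -0.458. Of 11021 genes outside the 10, those whose pattern was most like that of Tap1 were Ring1 (r = 0.816), Map3k1 (0.768), Hist1h1c (0.757), Hdac5 (0.756) and Plxna1 (0.75). These rested in part on Ctrl 1 and B2D 2, without which they were 0.654, 0.499, 0.456, 0.571 and 0.547. The libraries share depth and scaling, and the values are descriptions.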

How the data were processed

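Total RNA of 18 livers was made into mRNA libraries. Per the submitters' processing notes, the authors used STAR, mm10, featureCounts and DESeq2, and they deposited 1 FPKM table per experiment (RPKM in their methods), each normalized on its own. Tool versions and the strandedness of counting are not given in the sources used here. Columns were matched to mice by mouse number, and each library came from a different mouse. In every library 100% of values were whole multiples of 1 read (tolerance 0.05 reads), which gave reads per gene.

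Within each table, limma 3.58.1 (R 4.3.3, eBayes with trend) was run on log2(FPKM + 1) for genes averaging 0.5 FPKM or more, with Benjamini-Hochberg adjustment over all genes and a threshold of 0.05. The study tested read counts. Here the FPKM were tested as deposited, and the recovered reads entered only limma voom, as an alternative. Ratios were tested by exact permutation (SciPy 1.17.1). The fits were tested on simulated data. The 10 genes were fixed by name, up to 4 genes per list were named by smallest adjusted p, and cell type markers were named after their values were seen. The 10 genes and the lists were chosen with earlier results of these data known. Promoters are RefSeq windows; those of Tap2 and Nlrc5 were not used here. The result of 1 named list gene is not reported here. Alternatives were another pseudocount, other filters, rescaling to TPM, upper-quartile or quantile normalization, array weights, limma voom on the reads, all groups in 1 fit, and each library left out.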

Additional observations from a re-analysis of the deposited data

Results flagged for a closer look

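Over the 10 genes and 3 subunit ratios in 4 groups of mice, 52 sets of values were examined for a mouse whose gap to its nearest neighbour was large for the range of its group. There were 9 such values, from 5 mice. Chance gives about 1 in 20 sets where the sets are independent and normal. Here the ratios reuse the values of the genes and some genes vary together, so the 9 cannot be set against that rate. For B2m, Ctrl 3 was low at 1136 FPKM (the other Ctrl mice at 1375 to 1434) and B2D 2 was low at 867 FPKM (the others at 1150 to 1235). B2D 2 was also high for Tap1, at 4.51 FPKM (the others at 2.47 to 2.82). B2D 1 was low for Psmb8 (2.42 FPKM, the others at 3.60 to 4.04) and high for Psmb10 (7.58 FPKM, the others at 5.95 to 6.38). Ctrl_FF 4 was low for Psmb9, at 1.05 FPKM (the others at 2.81 to 2.99), and for the log2 ratio of Psmb9 to Psmb6, at -5.93 (the others at -4.81 to -4.64). B2D_FF 3 was high for Tap2, at 1.89 FPKM (the others at 1.16 to 1.27), and for the log2 ratio of Psmb8 to Psmb5, at -5.99 (the others at -7.36 to -7.24).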

How the results depend on the processing

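Without fenofibrate, the count of class I genes past the threshold was 0, and it was 1 with array weights (Psmb8), 1 with all 4 groups in 1 fit (Psmb10), and 0 to 2 with a library left out (2 without Ctrl 5). With fenofibrate it was 1, and it was 0 without a filter, with a mean FPKM of at least 5 (which leaves 5 of the 10 genes and not Tap2), after rescaling to TPM and after quantile normalization, 2 with array weights, limma voom or all 4 groups in 1 fit (Tap2 and Psmb8), and 0 to 2 with a library left out (2 without Ctrl_FF 4 or B2D_FF 3). For the difference of the effects it was 0 in all 26 alternatives. The log2 ratio difference of Psmb8 to Psmb5 without fenofibrate (-0.48) was -0.48 over the summed constitutive subunits (exact permutation p = 0.0159) and -0.65 to -0.34 with a library left out (exact permutation p = 0.0159 without B2D 5). That of Psmb10 to Psmb7 (-0.40) was -0.43 over the summed subunits (exact permutation p = 0.0714) and -0.53 to -0.32 with a library left out (exact permutation p up to 0.0952). Directions reversed for H2-D1 without fenofibrate (0.057 with TPM, 0.079 with quantile normalization, -0.11 to 0.004 with a library left out, above 0 at 0.004 without Ctrl 1 and 0.002 without B2D 5), H2-K1 without fenofibrate (0.124 with quantile normalization) and H2-D1 with fenofibrate (-0.16 to 0.05, above 0 without B2D_FF 2), and the cause was not tested. Of 401 refitted values of single class I genes, 375 kept their direction and side of the threshold, and so did 468 of 513 for named list genes.

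Over all genes, the 313 calls without fenofibrate became 67 without a filter, 731 with all 4 groups in 1 fit and 98 to 332 with a library left out, and the 529 with fenofibrate became 272 without a filter, 885 with array weights and 175 to 596 with a library left out. The 16 calls for the difference became 6 with a mean FPKM of at least 5 and 112 with array weights. Upper-quartile rescaling changed the split with fenofibrate from 263 lower and 266 higher to 366 and 223, rescaling to TPM changed it to 204 and 380, and without fenofibrate TPM changed 224 and 89 to 135 and 105. Scaling moved the median of all genes by under 0.1 on the log2 scale. No paired analysis was possible because the labels give mouse numbers, none of them shared between groups. With 4 or 5 mice a group and under 100 reads in some libraries for Tap2, Psmb8 and Psmb9, small differences were not detectable at this depth.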
